A study of Mus musculus with 4 samples.

Results

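Keratins are the intermediate filament proteins of epithelial cells, and 10 of their genes were followed here in mouse kidney ureteric buds exposed to angiotensin II (AngII) or to media alone. The 10 genes are Krt7, Krt8, Krt18 and Krt19, keratins of simple epithelium, Krt5, Krt14, Krt15 and Krt17, keratins of basal cells, and Krt20 and Krt23. They were found by matching the accession of each array probe to a gene symbol, which gave 11 probes for the 10 genes, 2 of them for Krt8. The array carried probes for 39 keratin genes in all. Of all genes and unnamed transcripts on the array, 14995 were bright enough to be tested, and these included the 10 keratins and 7 of the 29 others. All 10 keratins passed that brightness filter, and each was well above background in both RNAs on all 4 arrays, with no saturated spot.

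A keratin filament is built from pairs of one type I and one type II chain, so a cell that makes one partner usually makes the other. Krt8 (type II) and Krt18 (type I) are the first such pair made in the embryo and form the filament network of simple, single-layered epithelia, where Krt7 (type II) and Krt19 (type I) join them in ducts. Krt5 (type II) and Krt14 (type I) are the pair of the basal layer of stratified epithelium, Krt15 is a further type I keratin of basal cells, and Krt17 is a type I keratin of basal and injured epithelium. Krt20 is a type I keratin of differentiated gut epithelium and of the surface cells of the urothelium, and Krt23 is a divergent type I keratin. The ureteric bud is the epithelial outgrowth that branches into the collecting ducts and ureter, and it is a simple epithelium.

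Intact buds were cultured in a matrix gel on an insert, in DMEM/F12 with 10% fetal bovine serum, GDNF at 100 ng/ml and HGF at 100 ng/ml, growth factors that both groups received. One group had AngII at 1e-05 M for 6 h, and the control group had media alone for 6 h. The sources used here do not give strain, age or the number of buds or animals behind an RNA. Each of 2 numbered pairs of AngII and media RNA was read on a dye-swapped couple of two-colour arrays, giving 4 arrays on 1 slide, 2 with AngII in the red dye Cy5 and 2 with AngII in the green dye Cy3. All values below are log2 ratios of AngII over media, turned so that a positive value means more signal in the AngII RNA, or log2 spot intensities. Intensities of different probes are not compared as transcript levels.

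The ratios of the numbered pairs agreed within array noise. Across tested features the half-difference between the pairs had an SD of 0.04 on the log2 scale, and the contrast that holds array noise alone also had 0.04, a ratio of 1.02. The pairs were therefore counted as 1 independent pair of RNA samples, and the limma p-values measure only the spread between hybridisations, which may be technical. By that test 11569 of 14995 features (77.2%) passed a Benjamini-Hochberg adjusted p under 0.05, so passing it separates the keratins little from other genes, and size and direction on each array carry more information. At least 1.5-fold changes were seen in 10.9% of features and at least 2-fold changes in 2.12%. In these mixed preparations, fewer cells of a type and less RNA per cell cannot be told apart. Defining genes of the ureteric epithelium were detected, with 14 of 15 listed markers tested, among them Hoxb7, Gata3, Calb1 and Wnt11, while Ret was not well above background on any array.

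Krt20 had the largest ratio of the 10 keratins by far. Its neighbour on chromosome 11, Krt23, with no protein-coding gene between them in RefSeq, went the other way. The 250 bases before the annotated start of each gene are shown because these 2 genes are adjacent and their ratios differed by a mean of 2.57 log2 units. The sequences are RefSeq's, build GRCm38.p6, at chr11:99438154-99438403 for Krt20 and chr11:99493121-99493370 for Krt23, both on the minus strand and written 5′ to 3′. Capitals mark TATAAA, the TATA box, and CATTCC or its reverse complement GGAATG, the M-CAT element.
Krt20: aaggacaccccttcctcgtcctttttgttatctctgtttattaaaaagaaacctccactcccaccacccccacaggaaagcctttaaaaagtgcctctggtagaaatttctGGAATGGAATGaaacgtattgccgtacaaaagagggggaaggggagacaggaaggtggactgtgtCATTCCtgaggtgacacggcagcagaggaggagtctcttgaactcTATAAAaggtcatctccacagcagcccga
Krt23: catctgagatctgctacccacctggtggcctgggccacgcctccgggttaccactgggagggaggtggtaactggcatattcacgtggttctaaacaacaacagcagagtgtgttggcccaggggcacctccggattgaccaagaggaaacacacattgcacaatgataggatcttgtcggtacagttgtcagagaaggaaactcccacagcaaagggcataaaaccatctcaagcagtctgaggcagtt
The Krt20 window held TATAAA once, starting 29 bases before the gene's start, and CATTCC 3 times over both strands, starting 139, 134 and 74 bases before it, of which the first pair overlap. The Krt23 window held no exact match to either, and near matches were not searched for. Among 32851 windows of the same length, 12.4% held TATAAA and 12.6% held CATTCC on either strand. CACCC, the box read by Kruppel-like factors, was found at 2 places in the Krt20 window and none in the Krt23 window, against 52% of all windows. The GC box GGGCGG and the AP-1 site TGANTCA were found in neither window, against 32.7% and 6.75% of all windows. These letters were chosen after the sequences had been seen, a match is not evidence of binding, and 7 of the 10 keratins had a window in the RefSeq table. In the windows not shown, CACCC was found at 3 places for Krt5, 2 for Krt8 and 1 each for Krt7, Krt14 and Krt18. CATTCC was found once for Krt14. CACCC and CATTCC are thus not particular to Krt20, while TATAAA was found in the Krt20 window alone among the 7.

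Krt20 rose 4.59-fold under AngII. Its log2 intensity in the AngII channel was 10.65 and 10.81 on the arrays with AngII in Cy5 and 10.93 and 10.88 on those with AngII in Cy3, for replicates 1 and 2 in turn. In the media channel the same arrays gave 8.54, 8.62, 8.71 and 8.60. Every AngII value lay above every media value, by at least the gap between 8.71 and 10.65. The 4 log2 ratios were 2.11 and 2.19 with AngII in Cy5 and 2.22 and 2.28 with AngII in Cy3, so both dye orientations and both replicates gave nearly the same value. The mean was 2.20 with a standard error of 0.034 (limma adjusted p = 5.69e-24), the eighth highest of 14995 features, and 0.08% of features had a larger ratio in either direction. Within one dye, the uncorrected median spot signals were 1993.5 and 2058 for AngII against 707 and 800 for media in Cy5, and 1597 and 1598 for AngII against 178 and 160 for media in Cy3. In the authors' deposited table Krt20 had a log2 ratio of 2.28 and was called higher. The 9 other keratins had the same sign in the authors' deposited table as here except Krt18.

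Krt23 fell to 77.5% of its media level. Its AngII intensities were 8.70, 8.68, 8.92 and 8.79 and its media intensities 9.10, 9.04, 9.25 and 9.17 on the same arrays in the same order. The channels did not overlap, though the lowest media value and the highest AngII value were close. Its log2 ratios were -0.41, -0.35, -0.32 and -0.39, the narrowest range of the 10 genes, with a mean of -0.37 and a standard error of 0.034 (limma adjusted p = 6.96e-10). Of all features 25.9% had a larger ratio in either direction, so its size is ordinary. Within each array Krt20 exceeded Krt23 by between 2.52 and 2.67 log2 units.

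**Figure D1:**
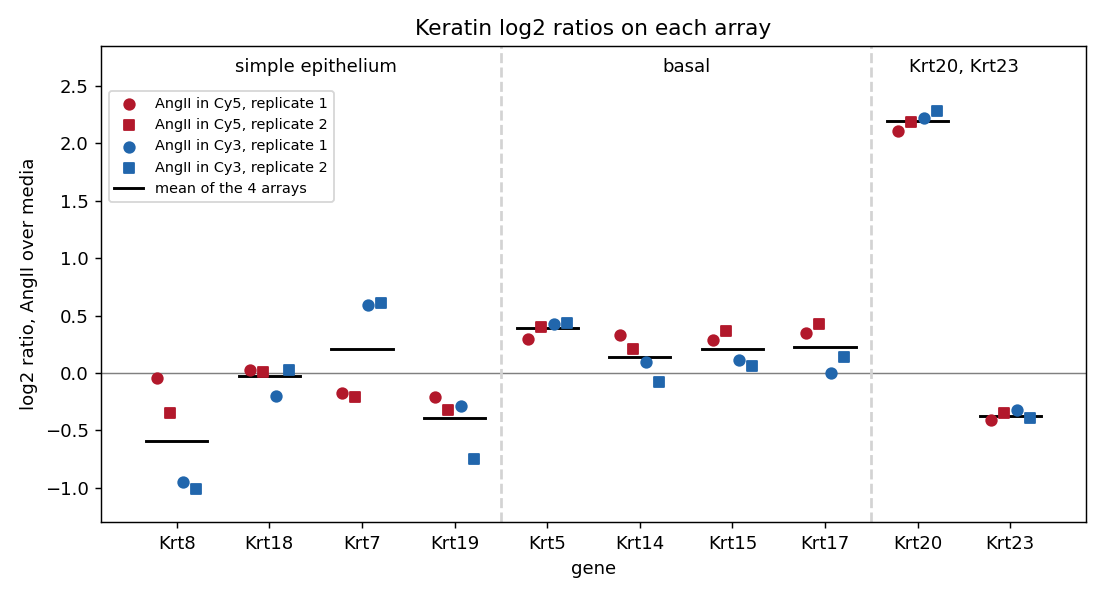
Log2 ratio of AngII over media (vertical axis) for the 10 keratin genes (horizontal axis) on each of 4 arrays, red for AngII in Cy5 and blue for AngII in Cy3, circles for replicate 1 and squares for replicate 2, with a black bar at the mean. Krt20 lies between 2.11 and 2.28 and Krt23 between -0.41 and -0.32 on all arrays, while the red and blue points of Krt7 and Krt8 stand apart.

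Among the keratins of simple epithelium, Krt8 and Krt19 were lower under AngII, Krt18 did not pass the test, and the direction of Krt7 depended on the dye. As a class these 4 genes had a median log2 ratio of -0.21, against 0 over all features, with 1 rising, 2 falling and 1 failing the test. Over all features 39.1% passed as higher and 38.1% as lower. Their class median was negative on each of the 4 arrays, from -0.36 to -0.10. It was -0.07 with Agilent's processed signals and -0.13 with median centring of each array.

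Krt8 fell to 66.5% of its media level at its brighter probe. The AngII intensities were 16.53 and 16.54 with AngII in Cy5 and 16.17 and 16.12 with AngII in Cy3, and the media intensities were 16.57, 16.89, 17.12 and 17.13. The channels did not overlap, but on the first array they nearly met. The log2 ratios were accordingly unequal, -0.04 and -0.35 with AngII in Cy5 and -0.95 and -1.01 with AngII in Cy3, all below 0. The mean was -0.59 with a standard error of 0.039 (limma adjusted p = 2.24e-12), and 10.7% of features had a larger ratio in either direction. The part of the ratio that turned with the dye was 0.39 log2 units, against a median of 0.10 over all features.

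The second Krt8 probe gave a ratio in the same direction. Its log2 ratios were -0.25, -0.28, -0.62 and -0.61, in the same order of arrays, with a mean of -0.44. Both probes thus had negative ratios on all 4 arrays and larger ones where AngII was in Cy3. On the array with AngII in Cy5 and replicate 1 the spot of this second probe was dim in both channels, with signals of 24377.5 and 10453 against 117022 and 39795.5 on the array of replicate 2 with the same dyes, while its ratio there was like that of the other array.

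Krt18, the type I partner of Krt8, had a mean log2 ratio of -0.03 with a standard error of 0.036 (limma adjusted p = 0.399). The AngII intensities were 17.00, 17.00, 17.03 and 17.00 and the media intensities 16.97, 16.99, 17.23 and 16.97. The channels overlapped, and the media value of the array with AngII in Cy3 and replicate 1 stood above the rest. That array had a log2 ratio of -0.20, against 0.03, 0.01 and 0.03 on the others. The sign of the mean turned, to 0.08 with processed signals and 0.06 with median centring. The authors' deposited table has Krt18 at 0.119 and calls it higher (their adjusted p = 0.0306), unlike the ratio here. The Krt18 spot was among the brightest on the array, with 2 features brighter, and Krt8 had 25. Within each array the ratio of Krt18 exceeded that of Krt8, by 0.06 and 0.36 with AngII in Cy5 and by 0.75 and 1.05 with AngII in Cy3. With 1 independent pair of RNAs that difference between partners has no test.

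Krt19 fell to 76.2% of its media level. The AngII intensities were 14.62, 14.72, 14.47 and 14.53 and the media intensities 14.83, 15.03, 14.77 and 15.28. All AngII values lay below all media values, by a narrow margin between 14.72 and 14.77. Its log2 ratios were -0.21, -0.32, -0.29 and -0.75, so the array with AngII in Cy3 and replicate 2 gave much of the size. The mean was -0.39 with a standard error of 0.045 (limma adjusted p = 3.56e-08), and it was -0.25 without replicate 2 (limma adjusted p = 0.286).

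Krt7, the ductal type II keratin, had no settled direction. Its AngII intensities were 12.78, 12.85, 13.22 and 13.20 and its media intensities 12.94, 13.06, 12.63 and 12.59. With AngII in Cy5 the AngII channel was the dimmer one, and with AngII in Cy3 it was the brighter one. The log2 ratios were -0.17 and -0.21 in the first orientation and 0.59 and 0.61 in the second, close between replicates and opposite between dyes. The mean of 0.21 (standard error 0.034, limma adjusted p = 7.00e-06) passed the test, which averages over dyes, while the dye part was 0.39 log2 units in size and larger than the ratio itself. Each orientation alone also passed, with a mean of -0.19 (limma adjusted p = 0.00122) and of 0.60 (limma adjusted p = 5.06e-06). Over all features the dye part exceeded the ratio in 30.9%.

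**Figure D2:**
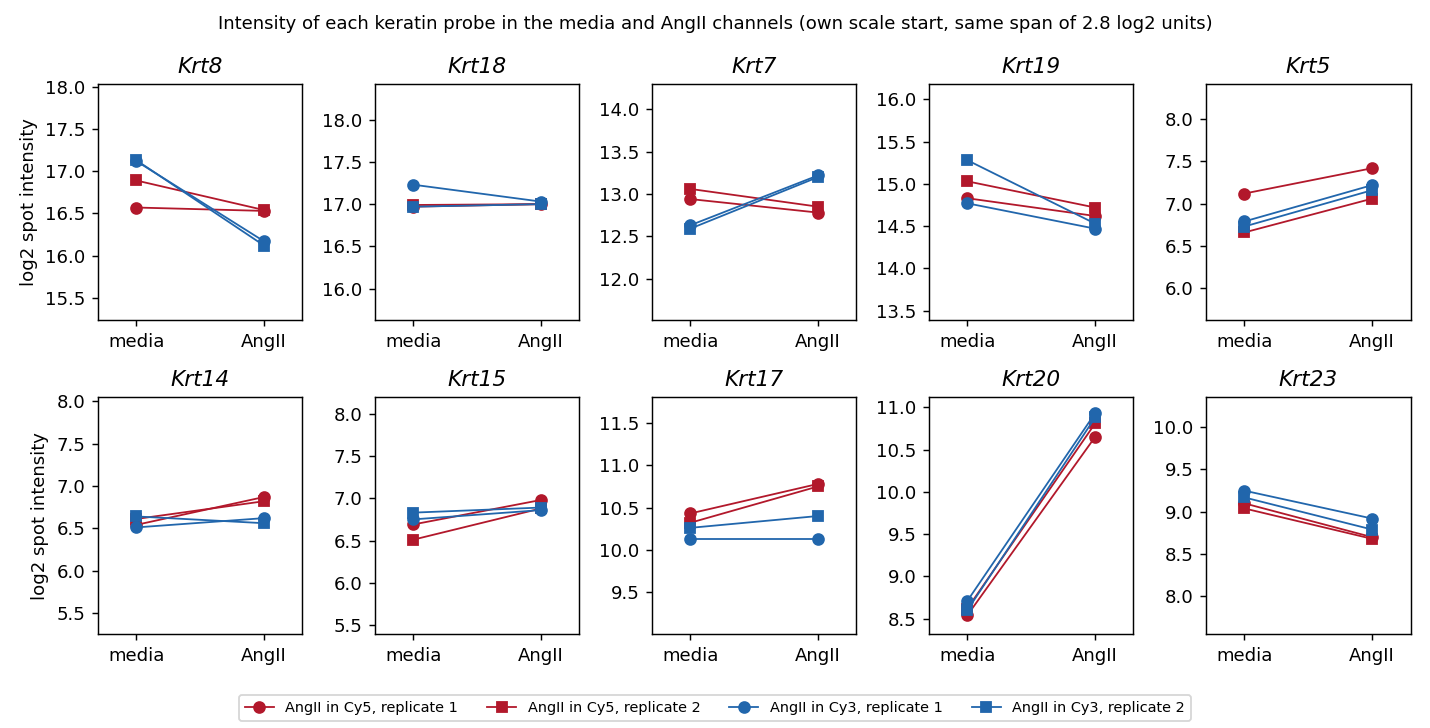
Log2 spot intensity (vertical axis, each panel with its own start and the same span) in the media and AngII channels of each array for the 10 keratins, after loess and scaling between arrays, with lines joining the channels of 1 array, red for AngII in Cy5, blue for AngII in Cy3, circles for replicate 1 and squares for replicate 2. All lines rise for Krt20 and fall for Krt23, the blue and red lines of Krt7 cross, and those of Krt8 differ in slope.

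The basal keratins had small positive ratios that passed the test in the main setting. Their class median was 0.22, 4 of 4 passed as higher, against 39.1% of all features, and none reached 1.5-fold. With the replicate block 1 of the 4 passed, and with either replicate left out 0 did. On the 4 arrays the class median was 0.32 and 0.38 with AngII in Cy5 and 0.11 and 0.10 with AngII in Cy3, so it was smaller in the second orientation. It exceeded that of the simple-epithelium keratins on every array, by between 0.35 and 0.65. The classes were set by known biology, but 4 genes each and 1 independent pair of RNAs leave that difference without a test.

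Krt5 had the clearest ratio of the basal keratins. The AngII intensities were 7.42, 7.06, 7.22 and 7.16 and the media intensities 7.12, 6.66, 6.79 and 6.73. The channels overlapped between arrays, since the first array was brighter in both, but within each array AngII was above media. The log2 ratios were 0.30, 0.40, 0.43 and 0.44, with a mean of 0.39 and a standard error of 0.034, or 1.31-fold (limma adjusted p = 2.83e-10). Krt14, its type I partner, had ratios of 0.33, 0.21, 0.10 and -0.08 and a mean of 0.14, or 1.1-fold (limma adjusted p = 0.0016). Its AngII intensities of 6.87, 6.82, 6.62 and 6.56 overlapped with media intensities of 6.54, 6.61, 6.51 and 6.64. Krt5 minus Krt14 was -0.02, 0.19, 0.33 and 0.52 log2 units on the 4 arrays, so Krt5 had the larger ratio on 3 of them.

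Krt15 and Krt17 had ratios of like size. Krt15 had 0.29, 0.37, 0.11 and 0.06 and a mean of 0.21, or 1.16-fold (limma adjusted p = 6.34e-06), with AngII intensities of 6.86 to 6.98 that did not overlap with media intensities of 6.51 to 6.83. Krt17 had 0.35 and 0.43 with AngII in Cy5 and, with AngII in Cy3, -0.0045 and 0.14. Its mean was 0.23, or 1.17-fold (limma adjusted p = 3.71e-06), and its AngII intensities of 10.13 to 10.78 overlapped with media intensities of 10.13 to 10.43. For Krt14, Krt15 and Krt17 the larger ratios were those with AngII in Cy5. With only the AngII-in-Cy3 arrays these 3 genes did not pass, with ratios of 0.01, 0.09 and 0.07 (limma adjusted p = 0.846, 0.0861 and 0.217), and Krt5 did, at 0.43.

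Krt5, Krt14 and Krt15 were read close to background. Their spot signals on the array with AngII in Cy5 and replicate 1 were 207, 146.5 and 152 in the AngII channel over local backgrounds of 71.5, 75.5 and 70. The background correction used adds a constant that shrinks ratios of such dim spots. With Agilent's processed signals the ratios were 0.84 for Krt5, 0.37 for Krt14 and 0.62 for Krt15, and the median of the basal class was 0.50. Krt17, a brighter spot, kept 0.23. Krt14, Krt16 and Krt17 are close relatives in sequence, and whether a probe for one also reads the others was not tested, so the split of signal among them is uncertain.

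**Figure D3:**
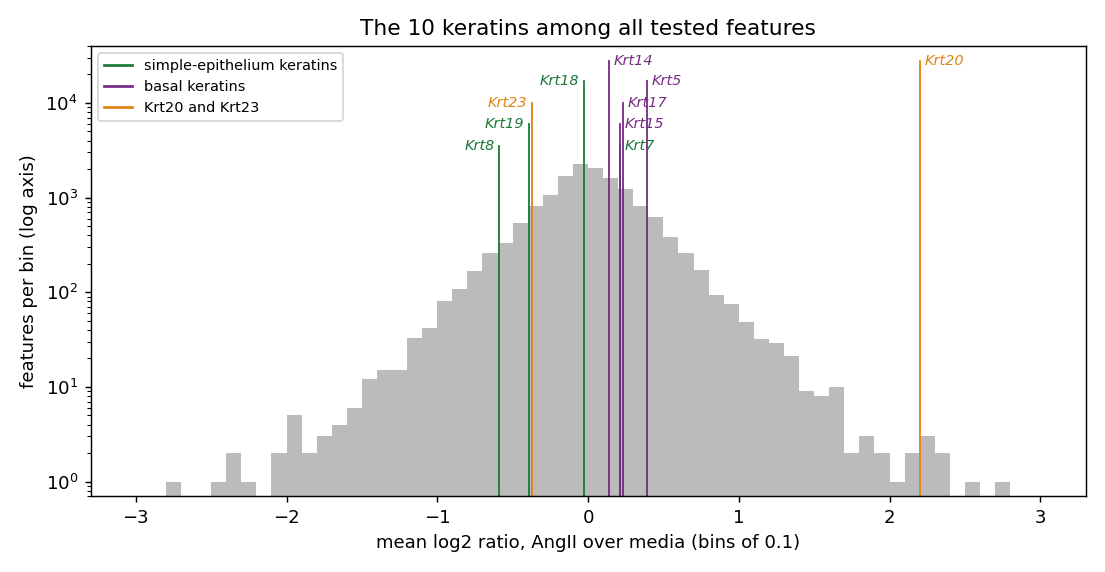
Number of tested features (vertical log axis) by mean log2 ratio of AngII over media (horizontal axis, bins of 0.1) in grey, with a line at each of the 10 keratins, coloured by class. Krt20 at 2.20 lies in the sparse right tail, and the other 9 keratins lie between -0.59 and 0.39 within the bulk of features, the Krt7 line hidden behind that of Krt15.

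Counted together, 9 of the 10 keratins passed, 6 higher and 3 lower, against 77.2% of all features, so their share is near that of other genes with so few members. At least 2-fold changes were seen in 1 of the 10 (Krt20), and at least 1.5-fold changes in 2, of which Krt20 was higher, as were 5.5% of all features, and Krt8 lower, as were 5.4%. The median absolute log2 ratio was 0.30, against 0.19 over all features. Of the 10 genes 6 had the same sign on all 4 arrays, as had 59.1% of all features, and 5 had channels that did not overlap, as had 33% of all features. With the replicate number as a block on the 4 arrays, where the dye part stays in the spread, 4 keratins passed, namely Krt20, Krt5, Krt23 and Krt19. Krt8 (limma adjusted p = 0.0814), Krt15 (0.126), Krt17 (0.135), Krt14 (0.266) and Krt7 (0.459) did not. Without replicate 1 the test passed 3 (Krt20, Krt8 and Krt19), and without replicate 2 it passed 1 (Krt20).

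**Figure D4:**
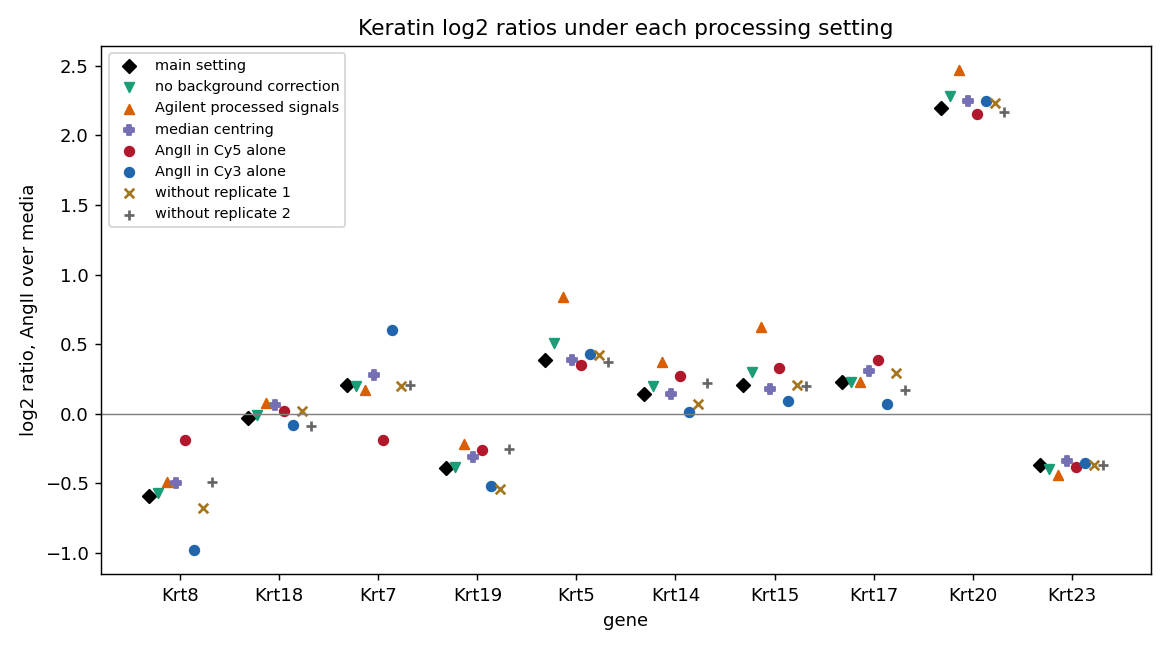
Log2 ratio of AngII over media (vertical axis) for each keratin (horizontal axis) under the main setting (black diamonds) and 7 other settings, by background correction, normalisation, dye orientation or replicate. Krt20 lies between 2.15 and 2.47 in all of those shown, Krt5 and Krt15 are highest with processed signals, and Krt7 is -0.19 on the AngII-in-Cy5 arrays and 0.60 on the AngII-in-Cy3 arrays.

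Of the 29 other keratin genes with a probe, 22 were too dim to be tested, among them Krt1, Krt4, Krt6a and Krt6b of stratified epithelium, which cleared background on no array. Of the 7 tested, 2 rose, 2 fell and 3 failed the test. Their median was -0.05, which was 0.08 with AngII in Cy5 alone. Krt16, a keratin induced in injured and activated epidermis, rose 1.55-fold, with log2 ratios of 0.33 to 0.88 and a mean of 0.64 (limma adjusted p = 6.01e-14). Krt79 rose by a mean of 0.23 (0.16 to 0.25) and Krt75 fell by 0.24 (-0.40 to -0.05), which did not pass with the replicate block (limma adjusted p = 0.0891). Krt79 and Krt84 passed the brightness filter in 1 RNA only, so their directions are not independent of that filter. With the stricter filter, which asks for both RNAs, 2 of the other keratins passed. The Krt79 ratio ran from 0.21 to 1.51 over its settings. Krt84 passed narrowly at -0.08 (-0.36 to 0.08, limma adjusted p = 0.0463), with ratios on both sides of 0, and its sign turned in 1 of its 12 settings. Krt10 and Krt13, keratins of the upper layers of stratified epithelium, had -0.05 and -0.02 and did not pass.

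Genes that tie keratin filaments to desmosomes, the junctions that hold epithelial cells to each other, went both ways. Of 15 listed desmosome genes 9 were tested, of which 3 rose, 4 fell and 2 failed the test. The median was 0.01 and turned to -0.05 with the stricter brightness filter and to -0.20 with AngII in Cy5 alone. Among the armadillo proteins of the plaque, Pkp3 fell by 0.99 (-1.38 to -0.68 over the arrays) and Jup, plakoglobin, by 0.54 (-0.61 to -0.51), while Pkp1 rose by 0.78 (0.20 to 1.35, limma adjusted p = 0.0908 with the replicate block). Pkp1 passed the brightness filter in 1 RNA only and was left out by the stricter filter, so its direction is not independent of the filter. The Pkp1 ratio ran from 0.21 to 2.22 over its settings. Perp, a membrane protein of desmosomes, rose by 0.72 (0.33 to 1.06). Dsp, desmoplakin, which binds keratin directly, rose by 0.18 (limma adjusted p = 0.153 with the replicate block), with 0.25 and -0.02 at its other tested probes. The epidermal desmosomal cadherins Dsg1a, Dsg1b, Dsg3, Dsg4 and Dsc1 were not well above background on any array.

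At the basal face hemidesmosomes tie keratin to the basement membrane. Of 8 tested genes of the hemidesmosome and cytolinker list 2 rose, 5 fell and 1 failed the test, and the median was -0.23. Eppk1, which fell, passed the brightness filter in 1 RNA only, so its direction is not independent of that filter. With the stricter filter, which left it out, 6 passed and the median was -0.09. Plec, plectin, the large linker between filaments and adhesion sites, fell by 0.82 (-1.15 to -0.53, other probes -0.73 and -0.20). Itgb4, the hemidesmosomal integrin chain that binds plectin, rose by 0.71 (0.68 to 0.79), and its partner chain Itga6 fell by 0.36. The cornified-envelope linkers Evpl and Ppl, envoplakin and periplakin, went apart, at 0.60 (another probe 0.21) and -0.50. Of 11 tested genes for other intermediate filaments 2 rose, 7 fell and 2 failed the test, and the median was -0.20. Synm, which rose, and Sync, which fell, passed the brightness filter in 1 RNA only. With the stricter filter, which left both out, 7 passed and the median was -0.32. The nuclear lamin genes fell, Lmnb1 by 1.08 (-1.28 to -0.90), Lmna by 0.60 (other probes -1.27 and -0.85) and Lmnb2 by 0.32. Vim, vimentin, the filament of mesenchymal cells, had -0.07 (-0.30 to 0.18) and did not pass.

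**Figure D5:**
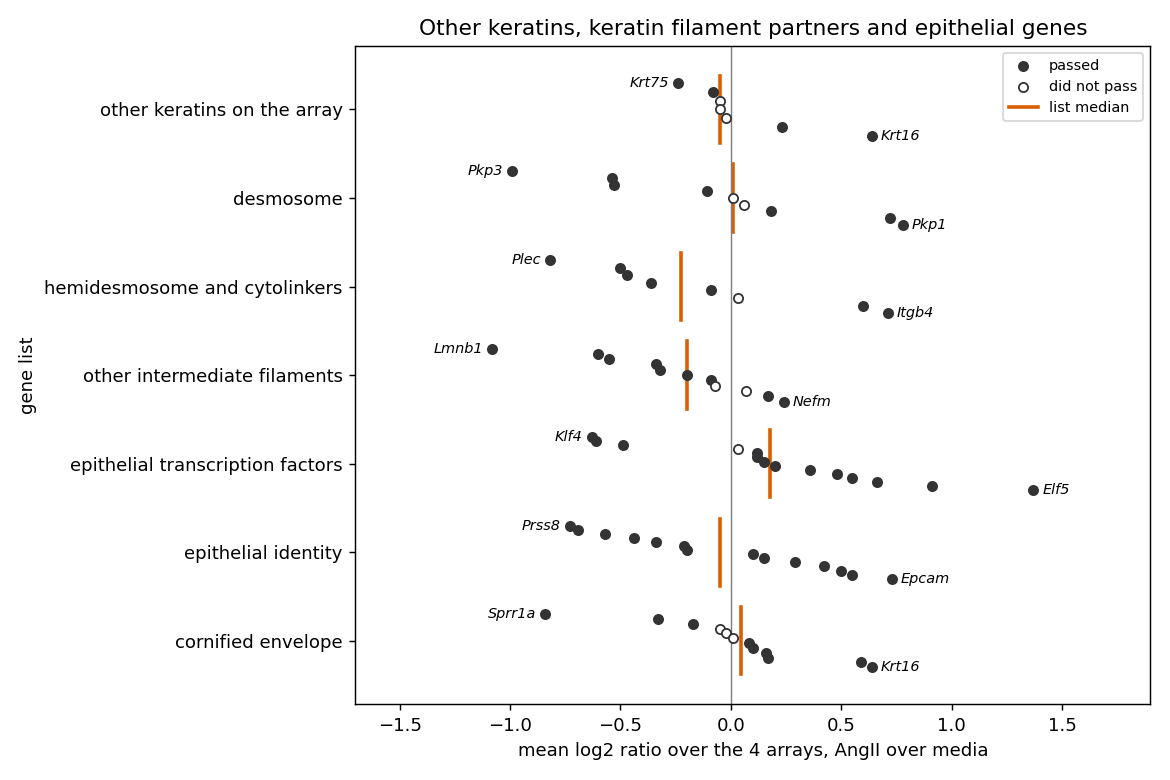
Mean log2 ratio of AngII over media over the 4 arrays (horizontal axis) of the tested genes of 7 lists (vertical axis), filled where the limma test passed and open where it did not, with an orange bar at the list median and the lowest and highest gene named. Lists of desmosome and epithelial identity genes spread to both sides, with medians of 0.01 and -0.05.

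Of 14 tested transcription factors of epithelial differentiation 10 rose, 3 fell and 1 failed the test, against 39.1% higher and 38.1% lower over all features. The median was 0.18, and 7 of the 14 passed with the replicate block. Tfap2c and Foxa2, which rose, passed the brightness filter in 1 RNA only, so their directions are not independent of that filter. With the stricter filter, which left them out, 11 passed and the median was 0.18. Elf5 and Ehf, ETS factors of glandular and ductal epithelium, rose by 1.37 (1.19 to 1.58) and 0.91 (other probes 0.26 and 0.42), and Pparg, a nuclear receptor that acts in urothelial differentiation, by 0.66 (0.42 to 0.90). Klf4, a Kruppel-like factor of terminal differentiation, fell by 0.63 (-0.86 to -0.40). Trp63, which sets the basal keratin programme in stratified epithelium, and Cdx2, of intestinal epithelium, were not well above background on any array. Of 14 tested genes of general epithelial identity 7 rose and 7 fell, with a median of -0.05 that was 0.01 with processed signals. Epcam, an epithelial adhesion protein, rose by 0.73 (0.59 to 0.87), and the tight junction gene Cldn4 and the serine protease gene Prss8 fell by 0.69 and 0.73.

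Genes of urothelium and of cornified epithelium, tissues that also make some of these keratins, were tested in part. Of 10 urothelial genes 3 were tested, of which 2 rose, Tmprss2 by 0.85 and the uroplakin gene Upk1b by 0.36, and Gsdmc fell by 0.18 (limma adjusted p = 0.163 with the replicate block). Upk1b and Gsdmc passed the brightness filter in 1 RNA only, so their directions are not independent of that filter. With the stricter filter only Tmprss2 was left and passed, and the list median was 0.85. The Upk1b ratio ran from 0.25 to 2.98 over its settings. Upk2 and Upk3a, uroplakins that define surface urothelium, were not well above background on any array, and Upk1a was so on 1 array and Upk3b on 2 in each RNA. The mean log2 intensity of the 3 tested genes was 7.12 to 7.29 in the AngII channels and 6.80 to 6.95 in the media channels. Of 22 listed genes of the cornified envelope and stratified layers 12 were tested, 6 rose, 3 fell and 3 did not pass. Their median of 0.04 was -0.15 with AngII in Cy3 alone and 0.08 with the stricter filter, where 8 passed. Tgm5, which rose, passed the brightness filter in 1 RNA only, so its direction is not independent of that filter. Sprr1a, a cornified-envelope protein, fell by 0.84 (-1.13 to -0.61), and Tgm1, the enzyme that crosslinks that envelope, rose by 0.59 (0.25 to 0.87).

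Markers of other cells were read beside the keratins, since mesothelium also makes simple keratins. Of 6 mesothelial markers 3 were tested and rose, Msln by 1.11 (0.59 to 1.64), Upk1b by 0.36 and Wt1, also a gene of nephron progenitors, by 0.22 (limma adjusted p = 0.058 with the replicate block), while Lrrn4 and Bnc1 were not well above background on any array. Upk1b passed the brightness filter in 1 RNA only, and with the stricter filter, which left it out, 2 of these markers passed. The mean log2 intensity of the 3 tested mesothelial markers was 8.28 to 8.55 in the AngII channels and 7.77 to 8.05 in the media channels. Erythroid markers rose in 7 of 8 tested, with 10.24 to 10.53 in the AngII channels against 8.64 to 8.76 in the media channels, led by Hbb-bt at 2.78. Stromal markers were at 11.08 to 11.20 against 10.94 to 11.02, with 4 rising, 3 falling and 4 failing the test, and Acta2 rose by 1.69 (other probes 1.03 and 0.65). Of 8 tested nephron progenitor markers 2 rose and 6 fell, with a median of -0.32. That median was -0.09 on the AngII-in-Cy5 arrays and -0.50 on the AngII-in-Cy3 arrays. Six2, which maintains these progenitors, had -0.37 (-0.83 to 0.04, limma adjusted p = 0.219 with the replicate block). The mean log2 intensity of the 8 progenitor markers was 8.66 to 8.87 in the AngII channels and 8.69 to 9.01 in the media channels. Of 8 tested endothelial markers 1 rose, 6 fell and 1 failed the test, the median being -0.12, with intensities of 7.30 to 7.32 against 7.37 to 7.48. Cdh5 and Tie1, which fell, passed the brightness filter in 1 RNA only, so their directions are not independent of it. With the stricter filter 5 endothelial markers passed, with a median of -0.11. Of 8 tested leukocyte markers 3 rose, 4 fell and 1 failed the test, the median being -0.07, with 6.78 to 6.87 against 6.68 to 6.76. Ptprc, which rose, passed the brightness filter in 1 RNA only, so its direction is not independent of it. With the stricter filter 6 leukocyte markers passed, with a median of -0.13. Of 14 tested ureteric bud markers 7 rose, 6 fell and 1 failed the test, the median being 0.08 (-0.05 on the AngII-in-Cy3 arrays), with 8.82 to 8.93 against 8.85 to 8.91. The part of these cells in the keratin ratios was not tested.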

How the data were processed

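RNA from AngII and media buds was read on 4 two-colour Agilent arrays, whose images were, per the file headers, read by Feature Extraction 10.5.1.1, from 300 ng of total RNA per labelling, per the labels' protocols. The deposited intensity values are median pixel brightness of spot and local background and Agilent's processed signals, from which, per the file headers, background and dye differences were removed. Each deposited table has a log10 ratio of red over green, and its flags were used as a score of 0 or 1. In the authors' deposited table a log2 ratio stands beside an adjusted p-value and a score for the call. limma is named in the submitters' processing notes, but the sources used here do not give how that table was normalised or fitted. That table correlated with the ratios computed here at r = 0.995 across features.

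The design planned for mean spot signals, and the files hold medians, which were used. The steps, in limma 3.58.1 under R 4.3.3, were: normexp with an offset of 50, loess within arrays with control spots at weight 0, flagged spots left out. Channel intensities were also scaled between arrays (Aquantile). Dye-swapped arrays of a pair were averaged, and lmFit and eBayes tested the 2 resulting ratios, with Benjamini-Hochberg adjustment over 14995 features. Since each array pairs the RNAs of 1 number, the ratio is the pairing. A probe was kept if well above background in 1 RNA on all 4 arrays (19373 of 41174 probes, 19024 to 21921 per channel), with the brightest probe per gene. Accessions named 25097 probes through RefSeq (GRCm38.p6), while the array annotation is mm9, so no other coordinates are given. The test was checked on simulated data.

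Named genes were the 10 keratins, other keratins with up to 6 of smallest p, and up to 4 of smallest p in each of 17 lists, with some further list members named after their values were seen. Members and lists were chosen with earlier results of these data known.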

Additional observations from a re-analysis of the deposited data

Results flagged for a closer look

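The log2 ratio of Krt18 on the array with AngII in Cy3 and replicate 1, at -0.20, stood apart from the other 3 arrays, which gave 0.01 to 0.03. The gap was 0.905 of the whole range, past Dixon's 95% critical value for 4 values, and chance marks about 1 in 20 such groups. Of the 11 keratin probes, 1 stood apart in this way.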

How the results depend on the processing

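Krt20, Krt5, Krt8, Krt14, Krt15, Krt17, Krt19 and Krt23 kept their sign under all 12 alternatives run. Krt18 turned to 0.08 with processed signals, 0.06 with median centring, 0.02 without replicate 1 (-0.09 without replicate 2) and 0.02 with AngII in Cy5 alone, and Krt7 turned to -0.19 with AngII in Cy5 alone. With the replicate block 4638 of all features and 4 keratins passed. Leaving out 1 replicate, which leaves 2 dye-swapped arrays, gave 2217 to 2921 features and 1 to 3 keratins. These fits hold the dye part in the spread by construction. With dye orientation as a term, chosen after seeing the data, 11392 features and 9 keratins passed. At least 2-fold features numbered 318, or 1134 with processed signals. The medians of lists turned sign to -0.15 for the cornified envelope list, 0.03 for epithelial identity and -0.05 for ureteric bud markers with AngII in Cy3 alone. With AngII in Cy5 alone they turned to -0.20 for desmosome, 0.02 for leukocyte, 0.08 for other keratins and -0.05 for stromal markers. The desmosome median was also -0.01 with no filter, -0.05 with the stricter filter and -0.02 without replicate 2, and that of epithelial identity 0.01 with processed signals and 0.03 with no filter. The cause was not tested. Dim spots limit Krt5, Krt14 and Krt15.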
